A study of Mus musculus with 60 samples.

Results

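The nuclear genes for respiratory complexes II to V were examined in 3 brain regions (prefrontal cortex, striatum, hippocampus) from mice that carried or lacked Glo1 and ate a diet with or almost without vitamin B6 (VB6). Members were all genes of the deposited tables with the symbol Sdha, Sdhb, Sdhc, Sdhd or Cyc1, or with a symbol that began with Uqcr, with Cox4 to Cox8, or with Atp5. This gave 48 of 21999 genes: 4 of complex II, 9 of complex III, 18 of complex IV and 17 of complex V. Of these, 45 encode structural subunits or their isoforms. The other 3 are Cox7a2l, which takes part in joining complexes III and IV, Atp5s, a coupling factor of the ATP synthase, and Atp5sl, which acts in the assembly of complex I.

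Mice were wild type (WT) or Glo1 knockout (KO), and with the 2 diets this made 4 groups of 5 mice, named below by genotype and diet as WT normal, WT lacking, KO normal and KO lacking. All 3 regions were sampled from each of the 20 mice, giving 60 libraries. From 8 to 12 weeks of age the mice ate chow that held 1.4 mg (normal) or 5 µg (lacking) of VB6 per 100 g. All KO libraries carried the batch label 1 and all WT libraries the batch label 2, so that genotype and batch cannot be told apart in any comparison of KO with WT. The labels did not give the strain, the sex or how Glo1 was inactivated. The VB6 level given for each mouse, in a material that the labels did not name, was between 58.25 and 78.09 ng/µl on the normal diet and between 2.25 and 5.63 ng/µl on the lacking diet.

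The respiratory chain sits in the inner mitochondrial membrane and supplies most of the ATP of neurons. Complex II (succinate dehydrogenase) oxidises succinate and passes the electrons to ubiquinone. Complex III passes them on to cytochrome c, complex IV (cytochrome c oxidase) reduces oxygen, and complex V (ATP synthase) uses the proton gradient to make ATP. All complex II subunits are encoded in the nucleus, whereas complexes III to V join nuclear with mitochondrially encoded subunits. Glo1 encodes glyoxalase 1, which removes methylglyoxal, a reactive by-product of glycolysis, and VB6 in its active form is a cofactor of many enzymes of amino acid metabolism.

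The promoters of many respiratory genes are known to be bound by nuclear respiratory factors. Windows of the 250 bases before the gene start were taken from RefSeq (GRCm38.p6), which held one for 37 of the 48 members. The core letters of the NRF1 motif, GCGCANGC, searched on both strands, were found for 11 of these 37 members (29.7%) and in 2725 of all 32851 windows (8.3%). The core letters of an ETS-family motif, CCGGAAGT, searched in the same way, were found for 3 of 37 members (8.11%) and in 945 of all windows (2.88%). A member was counted if any window of the gene held the letters, whereas the shares of all windows count single windows. The shares of members and of windows are therefore not in the same unit. Below are the windows of Sdha and Atp5g3, the members of complexes II and V with the smallest p-value for KO against WT, whose log2 fold changes had opposite signs in the prefrontal cortex. Capitals mark the NRF1 core letters, and both sequences are given 5′ to 3′ on the minus strand. Sdha is shown at chr13:74350281-74350490, leaving out 40 bases that GENCODE places within the gene, and Atp5g3 at chr2:73911327-73911576.
Sdha: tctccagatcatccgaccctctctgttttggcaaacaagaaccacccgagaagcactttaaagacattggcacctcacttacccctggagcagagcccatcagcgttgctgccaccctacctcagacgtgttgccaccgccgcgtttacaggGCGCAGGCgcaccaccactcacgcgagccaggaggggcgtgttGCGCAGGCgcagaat
Atp5g3: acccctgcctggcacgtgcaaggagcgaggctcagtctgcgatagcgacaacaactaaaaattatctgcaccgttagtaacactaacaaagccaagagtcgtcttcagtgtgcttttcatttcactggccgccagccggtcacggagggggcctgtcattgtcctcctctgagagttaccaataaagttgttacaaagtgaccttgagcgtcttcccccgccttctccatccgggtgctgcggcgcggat
The Sdha stretch held 2 matches of the NRF1 core, and the whole window 3. No match of either motif lay in the Atp5g3 window, which says only that these letters were not in these 250 bases.

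Libraries held between 7640047 and 13928265 counts, and their RNA integrity numbers (RIN) were between 7.6 and 9.3. Glo1 had 0 to 10 counts in each KO library and 299 to 734 in each WT library, in the direction of the genotype labels. The 6 mitochondrially encoded subunits of complexes III to V were listed with 0 counts in all libraries. Genes with too few counts for the fit were left out of the tests. Of the 48 members, the tests covered 42 in each of the prefrontal cortex and striatum, and 41 in hippocampus: all of complexes II and III, 13, 13 and 12 of complex IV, and 16 of complex V in each region. Atp5l, Cox6b2, Cox7a1, Cox7b2, Cox8b and Cox8c were untested everywhere and Cox4i2 was untested in the hippocampus. Stretches of 75 bases, the read length, were compared between GENCODE transcripts, and over 5% of them were shared with another gene for 16 members, whose levels are uncertain to that extent. Atp5l shared 76.0% and was listed with 39 to 48 counts per region. Atp5g2 shared 35.8%, Uqcrb 29.1%, Uqcrc2 22.8%, Cox7c 20.8%, Cox7a2l 13.4%, Cox4i1 9.09% and Cox6c 6.85%, whereas Sdha, Uqcrq and Atp5g3 shared none.

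Mean levels differed far more between the genes of a complex than between regions. Levels are given here as RPKM, read counts scaled by gene length and library depth, as mean ± SD over the 20 mice of a region. Comparisons between genes depend on the gene lengths used for the deposited values and on the shared stretches above. In the prefrontal cortex, for example, Atp5g3 and Atp5g1 had 25223 and 5127 counts in all, and 53.4 and 4.75 RPKM. The highest member of complex II was Sdha, the flavoprotein that holds the succinate site, at 76.4 ± 7.78 in prefrontal cortex, 75.3 ± 7.73 in striatum and 75.9 ± 7.18 in hippocampus. Sdhc, a membrane anchor of the same complex, was the lowest of the 4, at 9.54 ± 1.41, 11.7 ± 2.13 and 10.96 ± 1.43. In complex III, Uqcrb, a small subunit near the ubiquinone site, stood highest at 132.8 ± 11.3, 146.7 ± 17.4 and 151.1 ± 14.6. The core subunit gene Uqcrc1 lay at 15.5 ± 2.03, 14.4 ± 2.05 and 15.1 ± 2.01 RPKM. Atp5a1 and Atp5b, for the alpha and beta subunits of the catalytic head of the ATP synthase, had 134.3 ± 15.9 and 111.3 ± 9.997 in the prefrontal cortex. Genes of like level differed in how far the mice scattered. In the hippocampus Atp5g3 was at 61.0 ± 21.9 RPKM and Uqcrc2 at 62.5 ± 3.95.

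**Figure D1:**
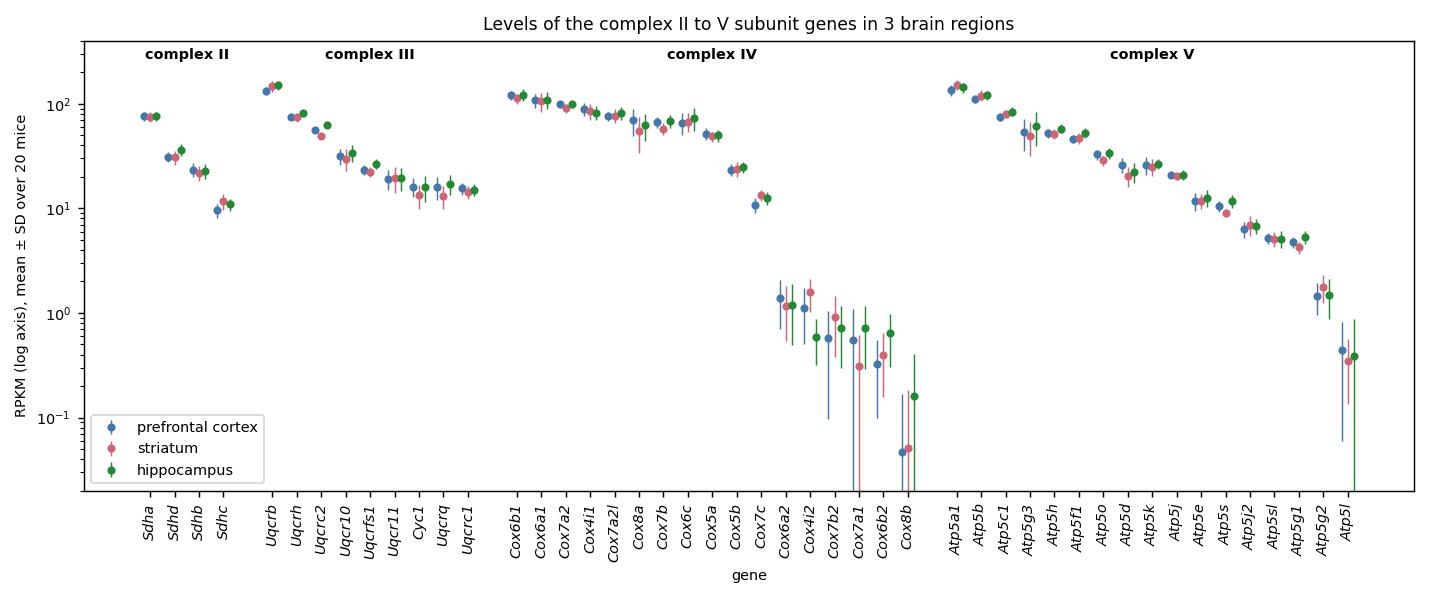
Level of the 47 members with at least 1 count in each region, as mean ± SD of RPKM over 20 mice on a log axis, by complex. In complex IV the means reach from below 1 RPKM, as for Cox7a1, to above 100, as for Cox6b1, and Sdha is the highest gene of complex II in all 3 regions.

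Complex IV has several subunits with paralogous isoforms, and in each pair one gene carried nearly all of the signal. The exception was Cox7a2l, no structural subunit, whose level was not far below that of its paralogue Cox7a2. Cox4i1 was at 89.2 ± 12.8, 85.1 ± 14.8 and 81.9 ± 12.4 RPKM in the prefrontal cortex, striatum and hippocampus, against 1.11 ± 0.60, 1.57 ± 0.55 and 0.60 ± 0.28 for Cox4i2, the isoform known from lung and low oxygen. Cox6a1 had 108.0 ± 16.4, 105.1 ± 22.0 and 108.6 ± 19.8, while its heart and muscle isoform Cox6a2 had 1.38 ± 0.67, 1.17 ± 0.63 and 1.19 ± 0.70. Cox6b1 lay at 120.8 ± 11.7, 112.3 ± 12.6 and 121.4 ± 15.4, and the testis isoform Cox6b2 at or below 0.64 in mean. Cox7a2 was at 98.7 ± 7.10, 90.5 ± 8.12 and 98.7 ± 7.95, Cox7a2l at 75.6 ± 7.27, 77.0 ± 11.5 and 81.3 ± 11.3, and the muscle isoform Cox7a1 at 0.55 ± 0.53, 0.31 ± 0.30 and 0.72 ± 0.43. For Cox7b the values were 66.8 ± 7.94, 57.7 ± 7.99 and 68.3 ± 10.1, and its testis paralogue Cox7b2 reached 0.91 ± 0.53 in the striatum at most. Cox8a had 69.5 ± 20.3, 54.6 ± 20.7 and 62.1 ± 18.03, Cox8b between 4 and 12 counts per region, and Cox8c 0 counts in all 60 libraries. A count of 0 allows a level of up to 3 counts, between 0.215 and 0.393 CPM, the counts scaled to a common library size, depending on the library, for counting error only. The c ring of the ATP synthase is made from 1 protein encoded by 3 genes: Atp5g3 was highest, Atp5g1 had 4.75 ± 0.61, 4.25 ± 0.56 and 5.29 ± 0.77 RPKM, and Atp5g2 1.44 ± 0.49, 1.78 ± 0.54 and 1.48 ± 0.61.

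Comparisons of genotype and diet were made within each region on the counts with edgeR's quasi-likelihood test. P-values were adjusted by the Benjamini-Hochberg method over all genes tested, and a gene passed at an adjusted p under 0.05. In the prefrontal cortex 1 gene of complex IV passed, as lower, for KO against WT. Of complex III, 1 gene passed, as lower, for KO lacking against WT normal alone, where genotype, batch and diet all differ. No member of complexes II and V passed. Over both diets 1 of 42 members passed, Cox6c of complex IV, and 0.673% of all 13223 genes tested did. KO lacking mice against WT normal mice also gave 1 of 42, Uqcrq of complex III, beside 0.28% of all genes. On each diet alone 0 of 42 passed, beside 0.121% of all genes on the normal diet and 0.234% on the lacking diet. At an unadjusted p under 0.05 there were 2 members on the normal diet, Atp5e and Uqcrq, both at -0.37 (all genes 5.37%), and 8 on the lacking diet (all genes 12.4%), and DESeq2 and limma also called 0 on either diet.

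Cox6c encodes a small membrane subunit of cytochrome c oxidase. The gene lies on chromosome 15, 35925886 to 35938246 (GRCm38, GENCODE). In the prefrontal cortex it had 318.4, 249.2, 216.3, 254.9 and 304.8 CPM in the WT normal mice and 247.7, 176.4, 368.6, 262.0 and 280.7 in the WT lacking mice. The KO mice had 265.2, 285.5, 200.8, 178.7 and 176.4 on the normal diet and 176.5, 204.2, 156.6, 171.7 and 183.9 on the lacking diet. All 5 KO lacking mice lay below all 5 WT normal mice, and these groups did not overlap for 5 of 42 members (Cox6c, Uqcrq, Uqcrb, Atp5g3 and Sdha) and for 2.87% of all genes tested. Of the other groups, 2 of the KO normal mice lay within the range of the WT normal mice. Of the WT lacking mice, 1, at 176.4 CPM, lay within the range of the KO lacking mice. The KO mice of both diets together spanned 156.6 to 285.5 CPM, and most WT mice fell in that span. Group means were 268.7 ± 42.1, 267.1 ± 69.1, 221.3 ± 50.7 and 178.6 ± 17.5 CPM (SD, n = 5 each), in the same order. Over both diets Cox6c fell by 25.7% in KO mice, a log2 fold change of -0.43 (SE 0.10, adjusted p = 0.0399). The call was lost with limma on RPKM (adjusted p = 0.0982) and when any 1 of 14 of the 20 libraries was left out. The call held without WT lacking mouse 226, WT normal mice 273 or 283, KO normal mice 267 or 268, or KO lacking mouse 244, and the adjusted p ranged from 0.0030 to 0.0975 over the 20 omissions. For KO lacking against WT normal the log2 fold change was -0.59 (SE 0.14) and did not pass (adjusted p = 0.0634).

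Uqcrq, on chromosome 11, 53427922 to 53430831, encodes a small ubiquinone-binding subunit of complex III. It had 32.3, 31.0, 32.6, 46.6 and 39.8 CPM in the WT normal mice and 19.0, 28.5, 17.6, 23.7 and 22.2 in the KO lacking mice. These groups did not overlap. The WT lacking mice lay between 23.8 and 34.9 and the KO normal mice between 18.2 and 37.8. Uqcrq was lower in KO lacking mice than in WT normal mice by a log2 fold change of -0.72 (SE 0.16, adjusted p = 0.0434), with means of 22.2 ± 4.28 and 36.5 ± 6.64 CPM (SD, n = 5 each). Over both diets the value was -0.43 (SE 0.11, adjusted p = 0.0668). The call was lost with limma (adjusted p = 0.0964) and without TMM factors (0.0626). It held in 3 of 10 omissions of a library, those of KO lacking mouse 244 and WT normal mice 273 and 283, with adjusted p between 0.0241 and 0.132.

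Atp5g3, one of the genes for the c ring of complex V (chromosome 2, 73908447 to 73911326), had the lowest log2 fold changes of the 4 genes described by library and did not pass. It had 172.9, 105.9, 136.1, 131.0 and 151.3 CPM in WT normal mice, 125.1, 82.5, 186.1, 141.5 and 161.1 in WT lacking mice, 138.6, 186.2, 69.4, 80.7 and 77.7 in KO normal mice and 77.8, 89.0, 65.1, 86.0 and 73.6 in KO lacking mice. The KO normal mice fell into a high pair and a low trio, and all 5 on the lacking diet lay below every WT normal mouse. The log2 fold change was -0.58 (SE 0.14, adjusted p = 0.0549) over both diets and -0.83 (SE 0.21, adjusted p = 0.0684) for KO lacking against WT normal. Atp5a1, of the catalytic head of the same complex, had a value of 0.17 (SE 0.06, adjusted p = 0.164) over both diets.

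In the prefrontal cortex Sdha and Sdhb of complex II were higher and the anchor gene Sdhd lower in KO mice over both diets, and none of them passed. Sdha (chromosome 13, 74322254 to 74350280) had 276.0, 274.7, 287.0, 286.5 and 267.9 CPM in WT normal mice and 333.2, 317.3, 338.3, 302.2 and 308.1 in KO lacking mice, with no overlap. The other groups spanned both, with 275.0, 331.7, 245.1, 286.3 and 278.8 CPM in WT lacking mice and 282.0, 274.0, 320.3, 335.3 and 310.8 in KO normal mice. Its log2 fold change was 0.15 (SE 0.05, adjusted p = 0.148) over both diets and 0.20 (SE 0.07, adjusted p = 0.205) between the extreme groups, and neither passed. Over both diets Sdhb, the iron-sulfur subunit, was at 0.19 (SE 0.08, adjusted p = 0.258), and the membrane anchor Sdhd was at -0.18 (SE 0.07, adjusted p = 0.244). The other anchor gene, Sdhc, had a median of 32.3 CPM in WT mice (25.5 to 43.3) and 29.7 in KO mice (21.8 to 36.9). Its difference between KO and WT may depend on the diet, as it is counted below for the interaction at an unadjusted p under 0.05.

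**Figure D2:**
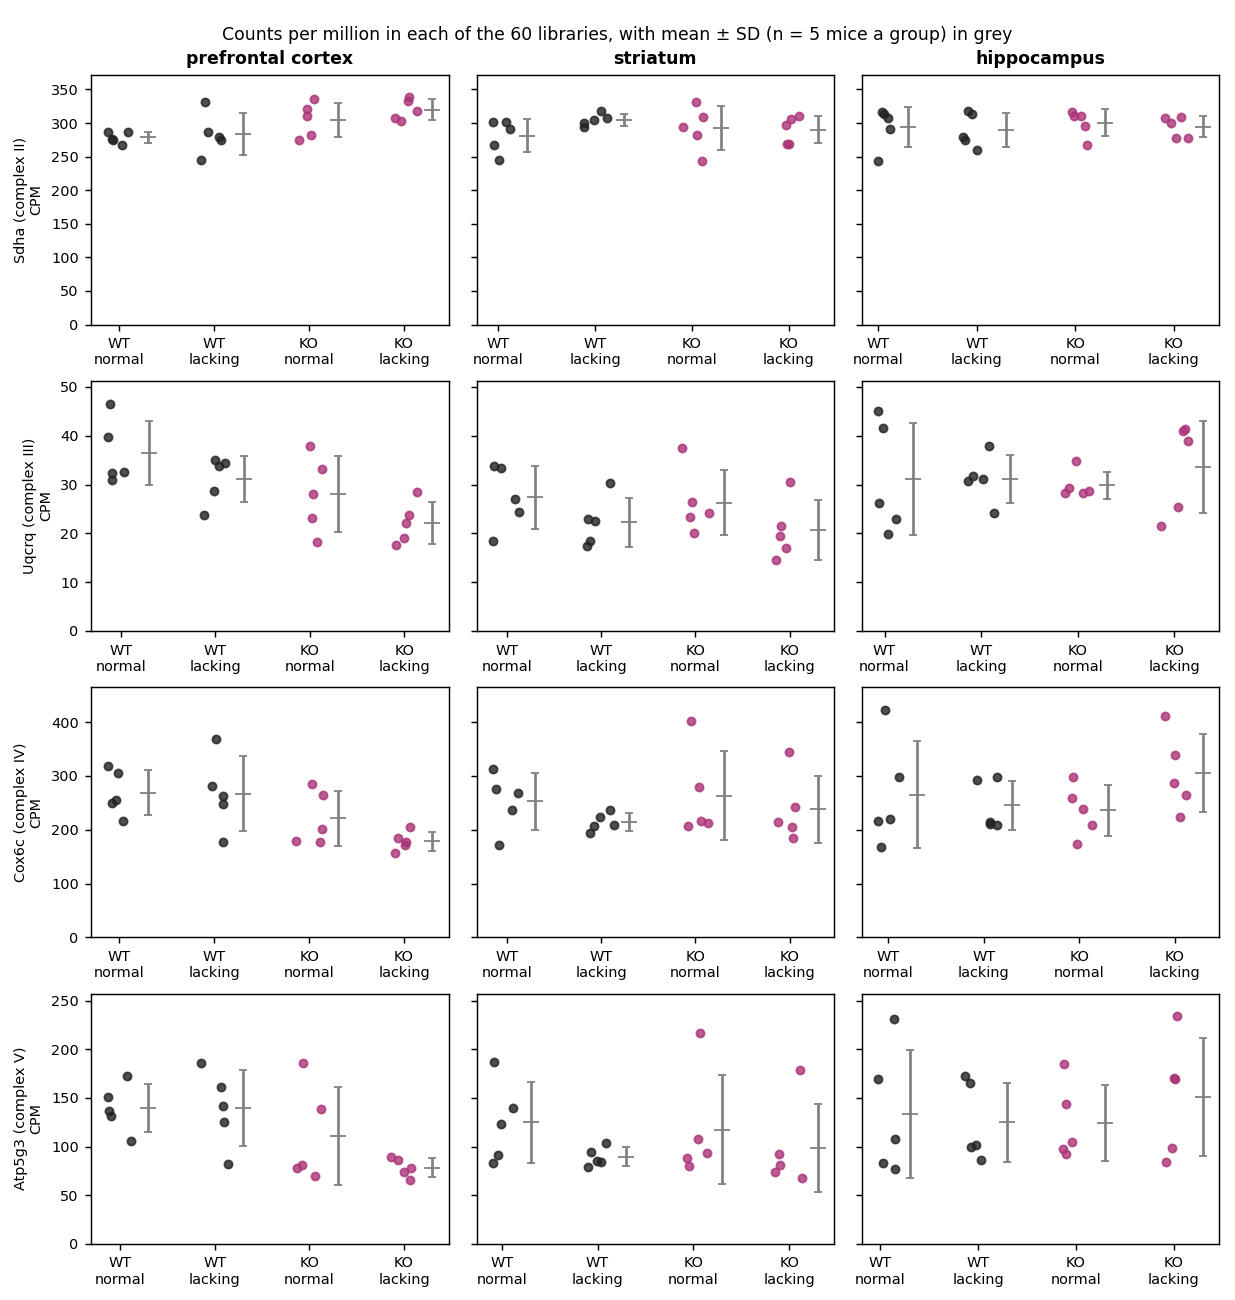
CPM of Sdha, Uqcrq, Cox6c and Atp5g3 in each library, WT in black and KO in purple, with the mean ± SD of each group (n = 5) in grey. In the prefrontal cortex all 5 KO lacking mice lie apart from all 5 WT normal mice for these 4 genes, as they do for Uqcrb and for 2.87% of all genes tested, and in the striatum and hippocampus these groups overlap.

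Without the threshold on the adjusted p, 10 of 42 members had an unadjusted p under 0.05 for KO against WT over both diets in the prefrontal cortex (23.8%), and 14.1% of all genes did. The genes with lower levels in KO mice were Cox6c, Atp5g3, Uqcrq, Atp5e, Uqcrb and Sdhd, and those with higher levels were Sdha, Atp5a1, Sdhb and Cyc1. Here and below, members named because they make up such a count were chosen after their values were seen. By complex these were 3 of 4 in complex II, 3 of 9 in complex III, 1 of 13 in complex IV and 3 of 16 in complex V. KO lacking against WT normal, which shares 10 of the same libraries, also gave 10 of 42, against 13% of all genes. The median log2 fold change over both diets was -0.002 in complex II, 0.012 in complex III, -0.032 in complex IV and 0.039 in complex V, and 0.001 over all genes. For KO lacking against WT normal the medians were 0.018, 0.003, -0.112 and -0.038, against 0.003 over all genes. Within groups, the mean log2 CPM over the members of a complex had an SD between mice of 0.067 in complex II, 0.110 in III, 0.142 in IV and 0.063 in V. On this scale KO minus WT over both diets was 0.0024, -0.014, -0.027 and -0.031, each smaller than that SD. KO lacking minus WT normal was 0.027, -0.045, -0.156 and -0.094, larger than the SD in complexes IV and V. These differences of means were not tested. In the latter comparison 10 of 13 members of complex IV were lower and 10 of 16 of complex V. The mean log2 fold change of complex V, which Atp5g3 weighs on, was -0.036 over both diets and -0.106 between the extreme groups.

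**Figure D3:**
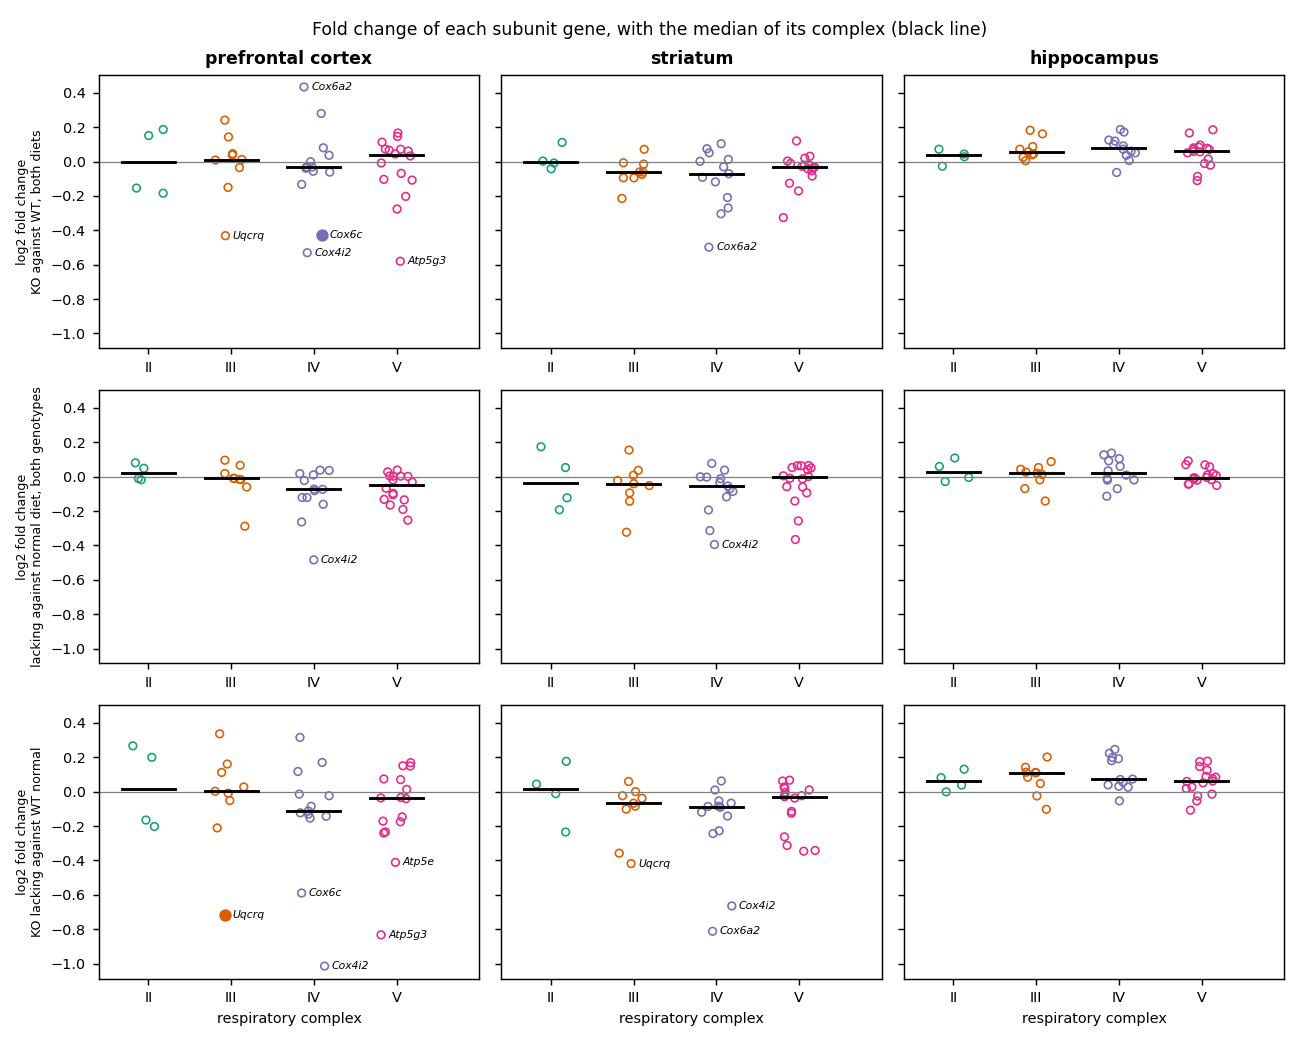
Log2 fold change of each tested member by complex and region, for KO against WT over diets, the lacking against the normal diet over genotypes, and KO lacking against WT normal. Filled points have an adjusted p under 0.05 and black lines are complex medians; the 2 filled points are Cox6c and Uqcrq in the prefrontal cortex, and the medians stay within 0.112 of 0.

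In the prefrontal cortex the 4 genes described above set the same libraries apart. The 9 libraries with the lowest Cox6c, at or below 204.2 CPM with all others at or above 216.3, were those of all 5 KO lacking mice, of KO normal mice 368, 381 and 390 and of WT lacking mouse 226. The number 9 was chosen after the values were seen, and these libraries were not tested as a group. The same 9 were the lowest for Atp5g3 (at or below 89.0 CPM, others from 105.9), for Uqcrq (at or below 28.5, others from 28.7) and for Ndufa4 (at or below 111.7, others from 120.8), a small subunit of complex IV first assigned to complex I. They were also the 9 highest for Sdha, at or above 302.2 CPM with the others at or below 287.0. KO normal mice 267 and 268 were not among the 9. Mouse 226 was singled out after its values of these genes were seen, and leaving it out raised the number of calls among all genes as well. Without it 5 of 42 members and 2.93% of all genes passed for KO against WT over both diets: Cox6c (adjusted p = 0.0030), Atp5g3 (0.00815), Uqcrq (0.0197), Sdha (0.0255) and Atp5a1 (0.0299). On the lacking diet alone Cox6c, Atp5g3 and Atp5a1 passed without it, beside 1.63% of all genes. Mouse 226 also had the lowest WT values of Uqcrb (104.6 CPM) and Cox7a2l (76.8), whereas it had 51.3 CPM of Cox8a against a median of 35.6 over the 20 libraries and 24.9 CPM of Cyc1 against 19.2. In the striatum the 9 lowest Cox6c libraries were 5 KO and 4 WT. Of these, 7 were among the 9 lowest for Atp5g3, 7 for Uqcrq and 7 for Ndufa4, and 5 among the 9 highest for Sdha. In the hippocampus they were 3 KO and 6 WT, with 7, 6 and 8 among the lowest for the same 3 genes and 8 among the highest for Sdha.

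Other measures differed between the same groups in the prefrontal cortex. Mean RIN was 8.26 in WT normal mice, 8.4 in WT lacking mice, 8.38 in KO normal mice and 8.54 in KO lacking mice. Fits with RIN as a covariate are given at the end with the other alternatives. Markers of cell types differed as well, and their part in these results was not tested. The summed level of 5 microglial markers was 213.3 to 274.5 CPM in WT and 176.9 to 221.7 in KO mice. Over both diets 4 of these 5 markers were lower in KO mice and 1 passed, P2ry12 (log2 fold change -0.38, adjusted p = 0.0172), while Csf1r was at -0.02. All 5 astrocyte markers were lower and 1 passed, Slc1a3 (-0.33, adjusted p = 0.00678), with sums of 1713.5 to 2542.5 CPM in WT and 1558.1 to 2107.5 in KO mice. None of 5 neuronal markers passed, and 4 were lower. In these tissue samples fewer cells of a type and less RNA per cell cannot be told apart. Markers of striated muscle summed to 1.07 to 4.24 CPM and those of choroid plexus to 0 to 2.23 CPM.

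In the striatum no member passed for KO against WT. Over both diets 30 of 42 had a log2 fold change below 0 and 49.3% of all genes one above it, 0 passed (all genes 0.203%) and 1 had an unadjusted p under 0.05 (all genes 5.78%). This was Cox7a2l, at a log2 fold change of -0.21 (SE 0.07, adjusted p = 0.740). Complex III had 8 of 9 members lower, with a median of -0.061, and the medians of complexes II, IV and V were -0.003, -0.071 and -0.029, against -0.002 over all genes. These signs turned with the scaling: with length and GC trends removed, 3 of the 4 medians were above 0 (0.046, 0.016 and 0.035 in complexes II, III and IV). For KO lacking against WT normal 31 of 42 were lower, a count given without the share of all genes. In this comparison 0 passed (all genes 0.0826%), 5 had an unadjusted p under 0.05 (all genes 5.06%), and the medians were 0.016, -0.067, -0.090 and -0.028. On the normal diet alone 0 passed (all genes 0.0601%) with 0 at an unadjusted p under 0.05 (all genes 2.43%), and on the lacking diet 0 passed (all genes 0.128%) with 3 (all genes 4.58%), Cox7a2l, Atp5d and Atp5sl, all lower. The 5 between KO lacking and WT normal were Atp5e, Cox7a2l, Atp5d, Uqcrq and Cox4i2, also all lower. Uqcrq had 17.3 to 33.7 CPM in WT mice with a median of 23.6, and 14.4 to 37.4 in KO mice with a median of 22.5. Cox6c had 171.7 to 313.4 with a median of 230.4 in WT mice and 185.5 to 401.9 with a median of 215.3 in KO mice. For both genes the KO range covered most of the WT range. Between mice of a group, the mean log2 CPM of complexes II to V had an SD of 0.086, 0.136, 0.153 and 0.083. The mean of KO minus WT over both diets was 0.0062, -0.075, -0.102 and -0.055, each smaller than the SD. KO lacking minus WT normal was -0.0039, -0.112, -0.175 and -0.093, larger than the SD in complexes IV and V, as in the prefrontal cortex, and was not tested.

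In the hippocampus, over both diets, 35 of 41 members had a log2 fold change above 0 in KO mice, among them 9 of 9 of complex III and 11 of 12 of complex IV, beside 50.4% of all genes. None passed (all genes 0.164%), and 3 had an unadjusted p under 0.05 (all genes 4.24%): Atp5k, Atp5g1 and Cox7b, all higher. The medians were 0.036, 0.057, 0.082 and 0.064 in complexes II to V, against 0.001 over all genes. KO lacking against WT normal gave 33 of 41 higher, a count given without the share of all genes. It gave 0 passing (all genes 0.0149%), 0 at an unadjusted p under 0.05 (all genes 3.62%) and medians of 0.060, 0.110, 0.073 and 0.061. The normal diet alone gave 0 passing (all genes 0.0299%) and 3 at an unadjusted p under 0.05 (all genes 7.48%), Uqcr10, Atp5g1 and Cox4i1, all higher. The lacking diet gave 0 passing (all genes 0.0672%) and 1 at an unadjusted p under 0.05 (all genes 6.02%), Cox5a at 0.28. Cox6c had 168.5 to 422.5 CPM with a median of 218.6 in WT mice and 173.9 to 411.1 with a median of 261.7 in KO mice. Within groups, the SD between mice of the mean log2 CPM of complexes II to V was 0.076, 0.134, 0.145 and 0.120. The mean of KO minus WT over both diets was 0.040, 0.091, 0.108 and 0.077, each smaller than the SD. KO lacking minus WT normal was 0.079, 0.097, 0.146 and 0.071, just above the SD in complexes II and IV. In the hippocampus other markers also differed, and their part was not tested: all 5 neuronal markers were higher in KO mice over both diets (median 0.06), all 5 oligodendrocyte markers lower (median -0.26), and 0 of either list passed. Choroid plexus markers summed to between 3.06 and 1478 CPM across hippocampal libraries. In the striatum all 5 microglial markers (median -0.19) and all 5 oligodendrocyte markers (median -0.20) were lower, with 0 passing. DESeq2 and limma called 0 members in every comparison of KO with WT within the striatum and the hippocampus.

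The members are short genes, and some libraries stood apart in their short genes as well as in these complexes. The members had a median length of 1551 bases in the tables' own gene lengths, against 4334 over all genes tested in the prefrontal cortex. Of the 42 tested there, 30 were no longer than 2492 bases, the limit of the shortest 20% of the other genes. In the striatum the library of WT lacking mouse 241 stood 0.275, 0.361 and 0.164 above the mean of the region in complexes III, IV and V (log2 CPM), and the 2654 other genes of that length stood 0.136 above it. In the hippocampus the library of WT lacking mouse 226 stood at -0.174, -0.350 and -0.332 in complexes III to V, and the short genes at -0.240. These were the libraries with the most extreme short-gene values of their regions, and others did not follow this. In the hippocampus WT normal mouse 286 had short genes at -0.089 and complexes III to V at -0.258, 0.126 and -0.153. In the prefrontal cortex KO lacking mouse 339 had short genes at -0.113 and these complexes at -0.018, -0.023 and -0.018. With the trend of level on gene length removed from each library, the medians for KO lacking against WT normal in complexes II to V became 0.033, 0.017, -0.008 and 0.004 in the striatum. They became 0.037, 0.075, 0.029 and 0.054 in the hippocampus and 0.033, 0.095, -0.014 and -0.035 in the prefrontal cortex. Signs of single complexes therefore turned with this scaling: complexes III and V in the striatum for this comparison, and complexes II and V in the striatum and II and IV in the prefrontal cortex for KO against WT over both diets. With trends on length and GC content removed, which was tried after the data were seen, complexes III and IV in the striatum also turned for KO against WT over both diets, to 0.016 and 0.035. The 4 hippocampal medians stayed above 0 in both comparisons and with both scalings. The part of gene length in these medians was not otherwise tested.

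**Figure D4:**
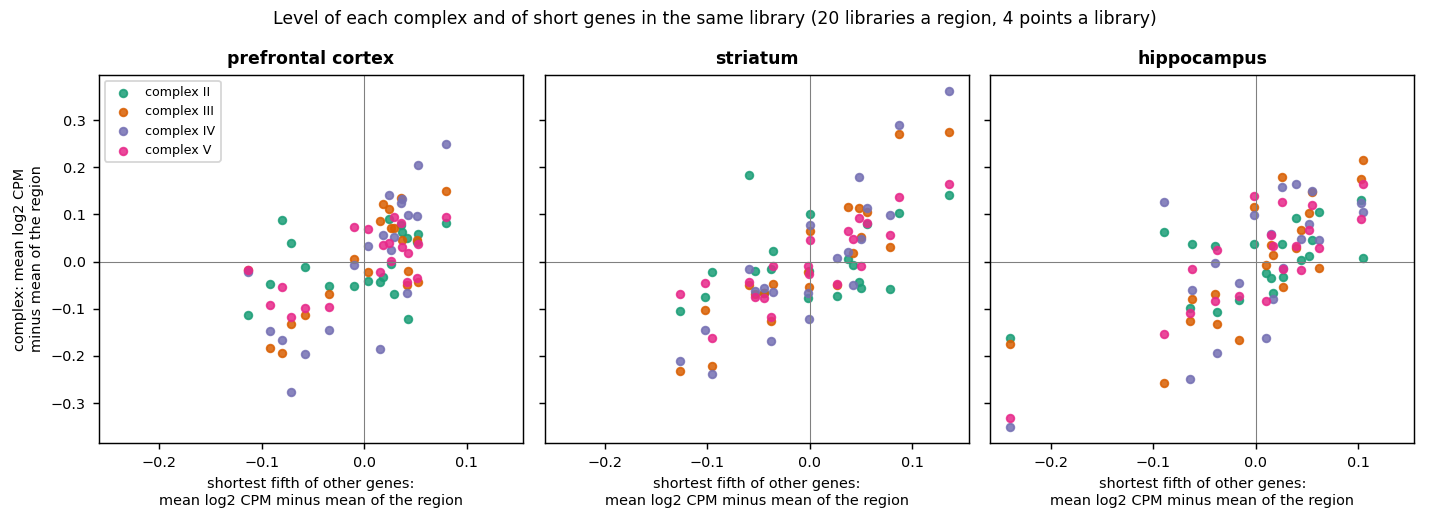
Mean log2 CPM of each complex in a library against that of the shortest 20% of other genes, both minus the mean of the region, with 20 libraries a region and 4 points a library. The library of WT lacking mouse 241 in the striatum lies high on both axes (0.136 for the short genes and 0.361 for complex IV), and that of WT lacking mouse 226 in the hippocampus lies low on both (-0.240 and -0.350).

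The diet alone moved no member past the threshold in any region or genotype, and it moved none of the other genes either (0% of all genes in each of the 9 diet comparisons). Over both genotypes, an unadjusted p under 0.05 was found for 2 of 42 members in prefrontal cortex (all genes 3.28%), 2 of 42 in striatum (3.06%), and 0 of 41 in hippocampus (2.15%). Per complex, the member with the smallest p for the diet was Sdhb in the striatum (log2 fold change 0.17), Uqcrq in the prefrontal cortex (-0.29), Cox7a2 in the prefrontal cortex (-0.12) and Atp5e in the striatum (-0.26), with every adjusted p at 1.00. Uqcrq in the striatum, the other member counted there, stood at -0.32. Atp5e encodes the epsilon subunit of the ATP synthase stalk. In WT mice 0 members in each region had an unadjusted p under 0.05 (all genes 2.27% in prefrontal cortex, 2.91% in striatum and 4.03% in hippocampus). In KO mice there were 4 in the prefrontal cortex (all genes 5.19%), 0 in the striatum (1.68%) and 3 in the hippocampus (6.56%). The 4 were Cox7a2, Atp5g3, Cox6c and Uqcrq, each lower on the lacking diet, and the 3 were Atp5f1, Cox5a and Cox7a2, each higher. In the striatum of KO mice 35 of 42 members were lower on the lacking diet, with medians of -0.074, -0.080, -0.091 and -0.070 in complexes II to V. This count is given without the share of all genes and was not tested. Members can shift together in a library, so their signs are not separate results. The striatal library of KO normal mouse 390 stood above the mean of the region in all 4 complexes, and that of KO normal mouse 368 below it. The interaction of genotype and diet gave 0 members and 0% of all genes in each region. At an unadjusted p under 0.05 it gave Sdhc in the prefrontal cortex (all genes 3.17%), Atp5s in the striatum (1.7%) and 5 members in the hippocampus (9.45%), Cox7a2, Cox8a, Uqcr10, Atp5f1 and Cox4i1. In the hippocampus Cox8a stood at -0.73 and Uqcr10 at -0.43, whereas Atp5f1 stood at 0.34. DESeq2 and limma called 0 members in each of these comparisons.

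Assembly factors and partners of complexes II to V were taken from a list of 42 genes, of which 41 were tested in each region. For KO against WT over both diets in the prefrontal cortex 1 of 41 passed, beside 0.673% of all genes. The gene that passed was Cox15, needed to make the heme A of cytochrome c oxidase, at a log2 fold change of -0.30 (SE 0.07, adjusted p = 0.0453). Of the 41, 12 had an unadjusted p under 0.05 (29.3%, all genes 14.1%), 10 of them lower. Ndufa4 stood at -0.48 (adjusted p = 0.0673). In the other comparisons of genotype and diet 0 passed. For comparison, 1 of 36 complex I subunit genes passed in the prefrontal cortex over both diets, beside the same 0.673% of all genes. It was Ndufc2 (-0.41, SE 0.09, adjusted p = 0.0234). The medians of complex I for KO lacking against WT normal were -0.034 (prefrontal cortex), -0.074 (striatum) and 0.094 (hippocampus).

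Whether an effect of genotype differed between regions was tested in a fit of all 60 libraries. For KO against WT over both diets 0 of 42 members differed between the prefrontal cortex and the striatum (0% of all 13930 genes), between the prefrontal cortex and the hippocampus (0.00718%) or between the striatum and the hippocampus (0%). At an unadjusted p under 0.05 these gave 6 members (all genes 9.18%), 3 (6.03%, Cox6c, Atp5g3 and Uqcrq) and 2 (5.81%, Cox7a2l and Uqcrc2). For KO lacking against WT normal 0 members and 0% of all genes passed in each pair, with 0 (all genes 3.27%), 5 (7.32%, Uqcrq, Cox6c, Atp5g3, Cox7a2l and Cox7b) and 2 (3.91%, Cox7a2l and Uqcrc2) at an unadjusted p under 0.05. DESeq2 and limma called 0. The fall of Cox6c is therefore not shown to be particular to the prefrontal cortex: the difference of its log2 fold change over both diets was 0.53 (SE 0.19, adjusted p = 0.499) for the striatum minus the prefrontal cortex and 0.49 (SE 0.19, adjusted p = 0.799) for the hippocampus minus the prefrontal cortex.

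Between regions, over all mice, genes of every complex differed. Of 42 tested members, 17 passed between the striatum and the prefrontal cortex (40.5%, all genes 69.9%), 10 between the hippocampus and the prefrontal cortex (23.8%, all genes 59.3%) and 13 between the hippocampus and the striatum (31.0%, all genes 66.4%). The 10 and the 13 include Cox4i2, which was below the count minimum in the hippocampus itself (99 counts). It entered this fit through the other regions, and its difference there is given as a description. Without mouse 241 the 10 became 16 (all genes 60.1%). The shares of members and of all genes were not tested against each other. Complexes were mixed in direction: the striatum had 7 members higher and 10 lower than the prefrontal cortex, with both signs among the members of complexes III, IV and V that passed.

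In complex II, Sdhc was higher in the striatum than in the prefrontal cortex (log2 ratio 0.32, SE 0.07, adjusted p = 6.04e-05). Sdhc was lower in the hippocampus than in the striatum (-0.18, SE 0.07, adjusted p = 0.0242), a call that held in 6 of 9 alternative ways of processing or testing. The other anchor gene, Sdhd, was higher in the hippocampus than in the prefrontal cortex (0.17, SE 0.06, adjusted p = 0.0193; kept in 7 of 9 alternatives) and than in the striatum (0.16, SE 0.06, adjusted p = 0.0232). Against the striatum the call held in 5 of 9 alternatives, with values of 0.035 to 0.24 and adjusted p up to 0.858.

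In complex III, Uqcrc2, a core subunit gene, was higher in the hippocampus than in the striatum (0.25, SE 0.03, adjusted p = 2.38e-11) and than in the prefrontal cortex (0.11, SE 0.03, adjusted p = 7.51e-04). Uqcrfs1, the Rieske iron-sulfur protein, was also higher there than in both (0.17, adjusted p = 0.00504, and 0.14, adjusted p = 0.0265, SE 0.06 each). Uqcrq was lower in the striatum than in the prefrontal cortex (-0.25, SE 0.10, adjusted p = 0.0230) and higher in the hippocampus than in the striatum (0.31, SE 0.10, adjusted p = 0.00614). Cyc1, the gene for cytochrome c1, was lower in the striatum than in the prefrontal cortex (-0.24, SE 0.11, adjusted p = 0.0385). Both of the last differences from the prefrontal cortex were lost with length trends and with length and GC trends removed, and held in 6 of 9 alternatives. Uqcrq held in 16 of 20 omissions of a mouse. Cyc1 held in 11 of 20, with an adjusted p of 0.557 and a value of -0.052 at the weakest alternative.

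In complex IV, Cox7c was higher in the striatum than in the prefrontal cortex (0.34, SE 0.07, adjusted p = 1.20e-05). Cox8a was lower there (-0.33, SE 0.13, adjusted p = 0.0232), a call kept in 7 of 9 alternatives and 16 of 20 omissions. Cox4i1 was lower in the hippocampus than in the prefrontal cortex (-0.18, SE 0.06, adjusted p = 0.00758), but the call held in 4 of 9 alternatives, with values of -0.27 to -0.046 and adjusted p up to 0.195. Its low isoform Cox4i2 was above the prefrontal cortex in the striatum (0.54, SE 0.20, adjusted p = 0.0153), on 99 to 270 counts per region in all. Cox4i2 was below the count minimum in the hippocampus itself and entered the fit of 60 libraries through the other regions, so that its hippocampal level, 0.60 RPKM against 1.11 and 1.57, is given as a description.

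In complex V, Atp5a1 was higher in the striatum than in the prefrontal cortex (0.21, SE 0.04, adjusted p = 1.29e-05). Atp5d, the delta subunit of the ATP synthase stalk, was lower there (-0.34, SE 0.08, adjusted p = 2.33e-04). Atp5s (0.31, SE 0.06, adjusted p = 7.02e-06) and Atp5g1 (0.23, SE 0.05, adjusted p = 2.27e-04) were higher in the hippocampus than in the striatum. Within WT normal mice alone, 2, 2 and 3 members passed in the 3 pairs of regions, beside 45.9%, 36% and 42.1% of all genes. These comparisons of the WT normal group means were taken from the fit of all libraries, with the same 13930 genes tested.

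**Figure D5:**
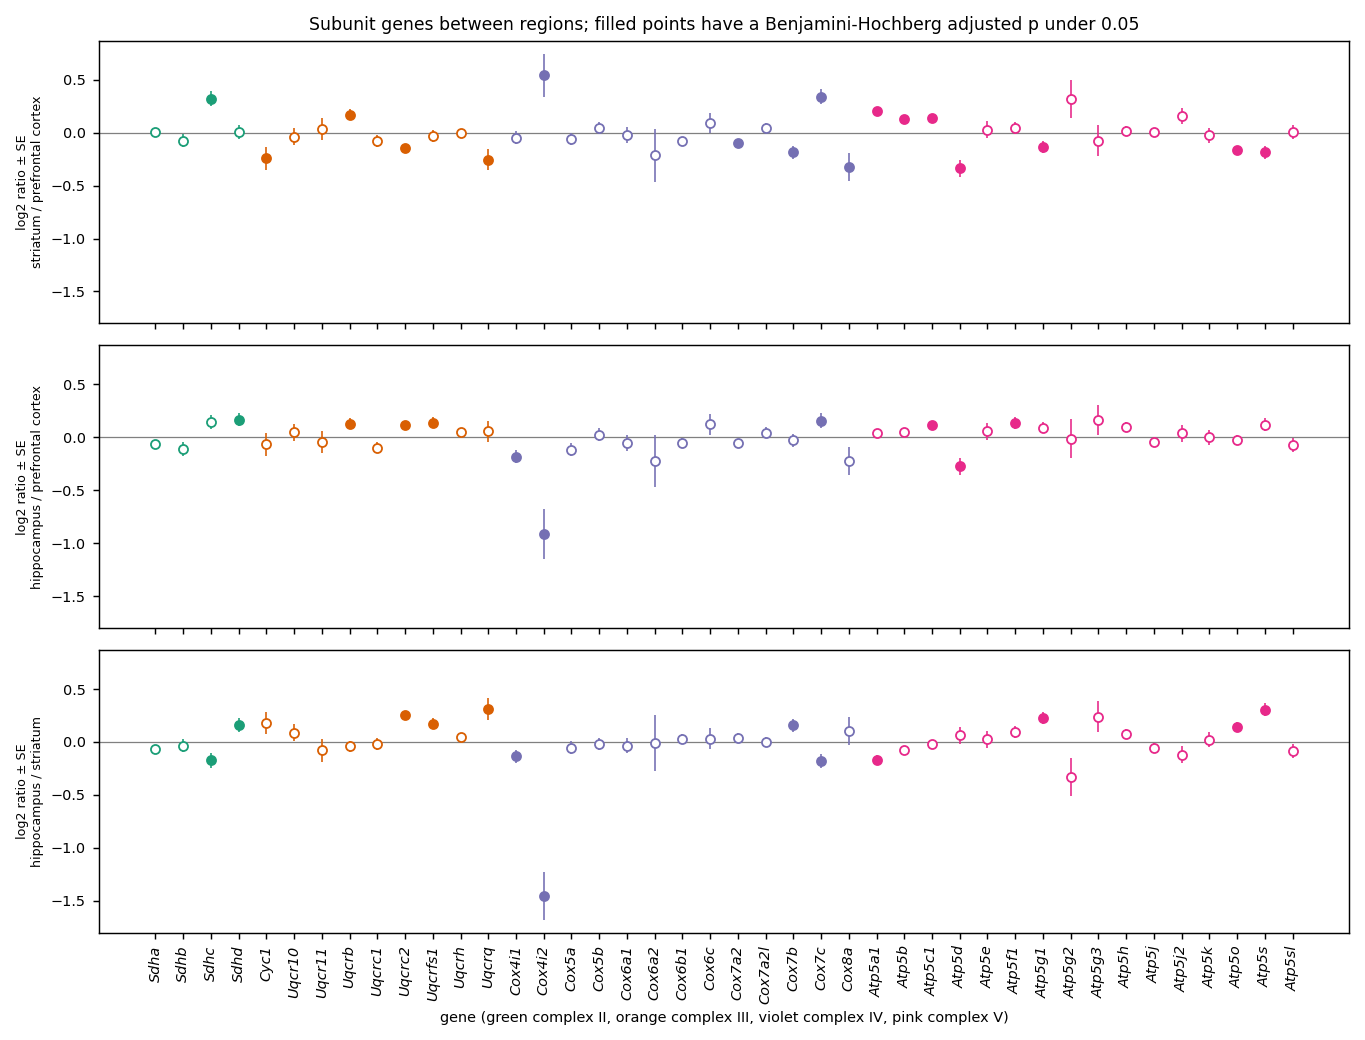
Log2 ratio ± SE of each tested member between the 3 pairs of regions over all 60 libraries, coloured by complex. Filled points have an adjusted p under 0.05 (17, 10 and 13 members from top to bottom), and the points of Cox4i2 in the hippocampus rest on counts below the minimum for that region.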

How the data were processed

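Poly(A) RNA from 2 µg of total RNA per library was read as single 75-bp reads. Per the submitters' processing notes, STAR 2.7.1a, HTSeq 0.9.1 and the build mm10 were used. The authors deposited raw counts per gene and RPKM for 21999 genes in 60 libraries, per the file headers, with 0 columns unmatched.

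Members and gene lists were chosen with earlier results of these data known. Within a region, all 20 libraries entered 1 model in edgeR 4.0.16 (R 4.3.3): TMM factors, filterByExpr (minimum count 10, minimum total 15), group means and quasi-likelihood F-tests, two-sided, with 8 comparisons a region. P-values were adjusted by Benjamini-Hochberg over all genes, with a threshold of 0.05. Regions were compared in 1 fit of all 60 libraries. CPM use TMM factors, and mean log2 CPM have a prior count of 2. Each group held 5 separate mice, and 120 pairs of libraries of a group had a chi-square per degree of freedom of 1.94 to 26.2, so that none were copies. Libraries of 1 mouse in different regions deviated from their group means together only weakly (60 pairs, mean correlation 0.0468, other mice -0.0111). Since the regions come from the same mice, a fit with the mouse as a block was an alternative.

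Named genes were all members past the threshold within a region. To these were added, per complex, the member with the smallest p over the regions for 3 comparisons, up to 3 members per complex and pair of regions with the largest change, and the isoforms. The steps were tested on simulated data. Alternatives were DESeq2 1.42.0, limma 3.58.1 on log2(RPKM + 1), no TMM factors, no filter, a mean of at least 1 CPM, members with a mean of at least 10 CPM, RIN as a covariate, gene-length trends removed, only the compared groups, means in place of medians, and each library left out. Removing length and GC trends together and leaving out the 3 non-structural members were added after the data were seen. Transcript GC content came from GENCODE M21 for 97.5% of genes.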

Additional observations from a re-analysis of the deposited data

Results flagged for a closer look

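The mean log2 CPM of each complex, and CPM of the genes described, were examined for a library that stood apart in its group of 5. Of 76 such groups 3 had one, and chance gives about 1 in 20. For complex III in the prefrontal cortex of KO normal mice, mouse 368 was at 5.20 and the other 4 lay between 5.43 and 5.52, a gap of 0.715 of the range. For complex II in the striatum of WT lacking mice, mouse 241 was at 6.22 and the others lay between 6.03 and 6.07, a gap of 0.754 of the range. For complex II in the hippocampus of KO lacking mice, mouse 242 was at 6.23 and the other 4 lay between 6.169 and 6.173, a gap of 0.93 of the range. Without mouse 368 the complex III median of the interaction in the prefrontal cortex was -0.167 in place of -0.047.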

How the results depend on the processing

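For KO against WT over both diets in the prefrontal cortex, the 1 member called became 2 with DESeq2, 0 with limma, 3 without the low-count filter, 2 with RIN as a covariate and 3 with length and GC trends removed. For KO lacking against WT normal there, 1 became 0 with limma, 0 without TMM factors, 3 without the filter, 3 with RIN, 2 with length and GC trends removed and 3 when just those groups were fitted. For KO against WT on the lacking diet there, 0 became 2 without the filter, 1 with RIN and 1 when just those groups were fitted. In the main fit 0.673%, 0.28% and 0.234% of all genes passed in these 3 comparisons. The shares under the alternatives are not given, so a change in these members and a general change in calls cannot be told apart. Leaving out 1 library each gave 0 to 5, 0 to 2 and 0 to 3 in these 3 comparisons; the 5 and the 3 came without WT lacking mouse 226. Between regions, leaving out 1 mouse gave 14 to 18 (striatum and prefrontal cortex), 7 to 16 (hippocampus and prefrontal cortex, 16 without mouse 241) and 11 to 16 (hippocampus and striatum); within WT normal mice, 2, 2 and 3 members passed. With the replicate block (the mouse) the counts between regions were 17, 10 and 13, and it changed no other call. Within a region the groups hold different mice, so that no paired fit could be made there. Among the medians, the mean of complex V was -0.036 in place of 0.039 (KO over both diets, prefrontal cortex) and -0.106 in place of -0.038 (KO lacking against WT normal). With RIN, complex V in the striatum went from 0.028 to -0.067 for the diet in WT mice and from -0.046 to 0.044 for the interaction. With limma, complex II in the hippocampus went from 0.080 to 0.0012 for the interaction. Leaving out 1 library, the interaction median of complex III in the prefrontal cortex ranged from -0.167 (without KO normal mouse 368) to -0.00919 (without WT lacking mouse 226), and the diet median of complex V in WT prefrontal cortex from -0.098 (without mouse 226) to -0.018. The cause of these changes was not tested. The other medians moved by less than 1 SD between mice of the mean log2 CPM of their complex (1111 values, and 1318 with a library left out), and no alternative other than an omission moved a median by over 0.136. Over these alternatives, omissions aside, the members called in the prefrontal cortex were Cox6c, Uqcrq and Atp5g3 alone. Cox6c stayed past the threshold in 7 of 8 alternatives (adjusted p 0.0127 to 0.0982) and Uqcrq in 7 of 9 (0.00647 to 0.0964).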
